A study of Drosophila melanogaster with 2 samples.

Results

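The nuclear genes for subunits of the mitochondrial respiratory chain were examined for binding of kay, the fly Fos protein and a subunit of the AP-1 transcription factor. They were chosen by name, as the protein-coding nuclear genes whose symbols begin with ND-, COX and a digit, UQCR, ATPsyn or Sdh. That gave 88 genes of the 13945 protein-coding genes on 6 chromosome arms, and the naming rule uses no binding value. ChIP-seq, which sequences the DNA fragments that an antibody pulls down with a protein, was done on whole Drosophila melanogaster embryos of mixed sex collected at 0 to 24 h. The flies were a transgenic line in which GFP is joined to the C-terminus of kay, and the antibody was against GFP. Chromatin had been sonicated to 200 to 800 bp. All samples formed 1 group of 2 biological replicates, numbered 2 and 4 by the labels, with 1 control file used in the calling, so no condition was compared with another. Whole embryos hold every embryonic cell type, and binding in a few cells and weak binding in many cannot be told apart.

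The respiratory chain moves electrons from NADH and succinate to oxygen in the inner mitochondrial membrane and uses the resulting proton gradient to make ATP. Complex I (NADH dehydrogenase, ND- genes) and complex II (succinate dehydrogenase, Sdh genes) pass electrons through ubiquinone to complex III (cytochrome bc1 complex, UQCR genes), and cytochrome c carries them on to complex IV (cytochrome c oxidase, COX genes). Complex V (ATP synthase, ATPsyn genes) uses the gradient. Fly genomes also carry duplicated copies of many of these genes, named with an L after the parent's symbol, and such copies are known to be expressed largely in the testis. AP-1 is best known in the embryo for dorsal closure and the response to wounds.

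The deposited candidate lists, 1 per replicate and 1 for the pooled replicates, each held 30000 regions with a summit and a signal from the authors' peak caller. A further list held the 3860 regions kept by the irreproducible discovery rate (IDR) procedure, which compares replicates. These 3860 were the strongest regions of the pooled list, with signals of 93.6 to 2530.6. A gene is called bound where any of its transcription start sites (starts) had an IDR summit at most 1 kb away, and a rank is the place of a region in its list, with 1 the strongest. Read counts are not part of these lists, and library depth is therefore unknown. Intervals beside shares are exact 95% Clopper-Pearson ones and take in counting error alone. The scaling of signal between libraries is not stated, so replicates were compared by rank.

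Sequences at the summits are shown for bound genes in 2 kinds: those with the core letters of the NRG element (a sequence defined in promoters of fly nuclear genes for respiratory proteins) and those of 3 of the 12 strongest bound genes that held neither it nor an AP-1 site. All are Drosophila melanogaster Release 6 (dm6), on the strand of the named gene, 5′ to 3′, and cut to leave out annotated exons. Capitals mark the NRG core in ND-42, ND-SGDH and ND-MNLL, the AP-1 site in ND-MLRQ, and the 7 bases at the summit in ND-ASHI, COX5A and COX7B. They are ND-ASHI at chrX:6679260-6679420 (minus strand), COX5A at chr3R:11819457-11819547 (plus), ND-42 at chr3R:22027539-22027699 (plus), ND-SGDH at chr3L:12138615-12138775 (minus), COX7B at chr3L:17425265-17425425 (plus) and ND-MNLL at chrX:7893799-7893927 (minus). ND-MLRQ, at chr3L:23339160-23339320 (plus), was not bound and was added after its values were seen, because its candidate held an AP-1 site.
ND-ASHI: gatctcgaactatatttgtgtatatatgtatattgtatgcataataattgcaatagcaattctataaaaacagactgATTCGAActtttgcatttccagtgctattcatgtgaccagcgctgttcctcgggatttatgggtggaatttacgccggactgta
COX5A: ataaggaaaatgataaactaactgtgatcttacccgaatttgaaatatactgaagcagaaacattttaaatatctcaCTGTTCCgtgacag
ND-42: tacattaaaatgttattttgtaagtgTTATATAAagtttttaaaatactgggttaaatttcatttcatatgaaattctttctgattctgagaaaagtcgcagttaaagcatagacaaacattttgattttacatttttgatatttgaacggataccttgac
ND-SGDH: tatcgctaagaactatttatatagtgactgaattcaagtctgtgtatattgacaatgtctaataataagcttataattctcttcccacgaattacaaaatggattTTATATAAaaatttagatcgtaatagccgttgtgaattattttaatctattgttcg
COX7B: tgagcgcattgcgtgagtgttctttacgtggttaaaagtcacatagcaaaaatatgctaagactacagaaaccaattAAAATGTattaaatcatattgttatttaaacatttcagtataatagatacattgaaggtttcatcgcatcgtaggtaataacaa
ND-MNLL: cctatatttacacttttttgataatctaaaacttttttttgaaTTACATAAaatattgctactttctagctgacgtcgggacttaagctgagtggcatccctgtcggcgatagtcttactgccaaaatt
ND-MLRQ: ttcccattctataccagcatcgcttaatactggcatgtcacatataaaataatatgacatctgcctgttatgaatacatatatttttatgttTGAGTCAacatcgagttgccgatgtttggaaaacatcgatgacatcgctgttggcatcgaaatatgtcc

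Of the 88 respiratory chain genes, 17 were bound (19.3%, interval 11.7 to 29.1%), against 21.3% of all protein-coding genes, so the share was close to the background. A weaker region was common at these genes: 67 of 88 (76.1%) had a pooled candidate within 1 kb, against 60.2% of all genes. Of those 67, 17 (25.4%) were bound, against 35.5% of all genes with a candidate. The remaining genes were 50 with a candidate below the IDR threshold and 21 with no candidate. All 17 bound genes had a different peak, and no peak counted for more than 1 of the 88.

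The bound genes were spread over the list and few stood near its top. Their median rank was 1746 and their median signal 149, against 1636 and 155 for all bound genes. Signals reached 288.0 at ND-ASHI and went down to 102.5 at COX6B. In 5 equal parts of the IDR list, strongest first, the best peaks of bound respiratory chain genes numbered 3, 3, 6, 1 and 4. The strongest part held 17.6% of the bound respiratory chain genes, against 25.4% of all bound genes.

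**Figure D1:**
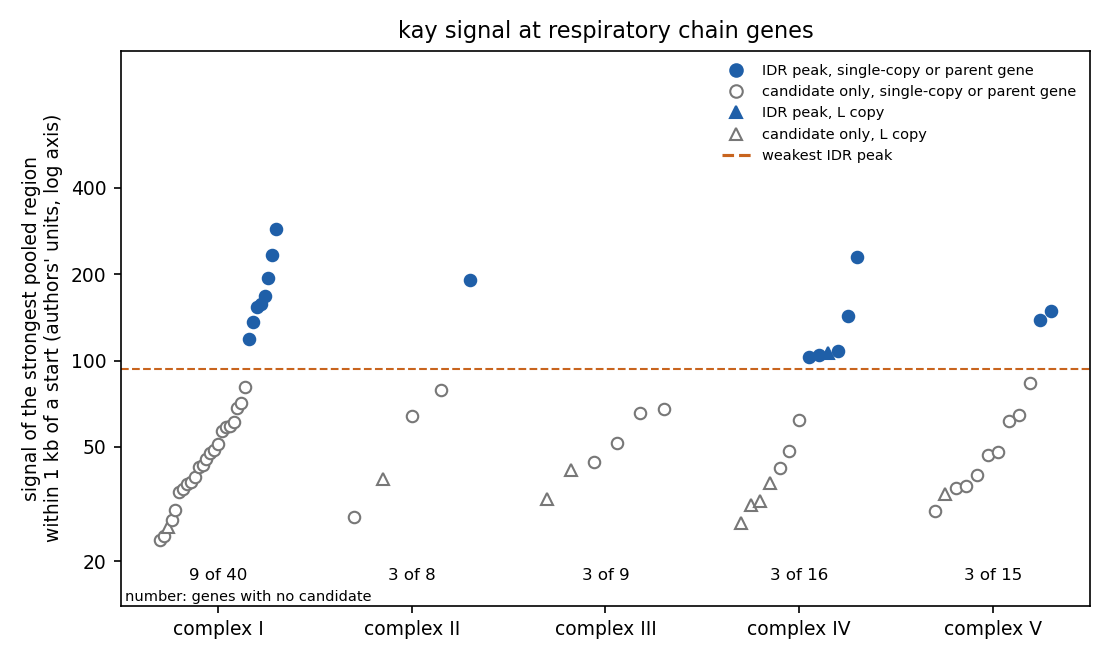
Signal (authors' units, log axis) of the strongest pooled region within 1 kb of a start for each respiratory chain gene, by complex; circles are single-copy or parent genes, triangles are L copies, filled points are IDR peaks and open points candidates below the threshold (dashed line, 93.6). Counts along the bottom are genes with no candidate; filled points reach 288.0 in complex I, and complex III has none.

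Complex I had 8 bound genes of 40 (20%), or 8 of 34 (23.5%) once the 6 L copies are set aside. Both shares were close to the 21.3% of all genes. The enzyme has 7 nuclear-encoded core subunits, among them those that carry the flavin and the iron-sulfur clusters or bind ubiquinone. Of the 7, 2 were bound (28.6%). ND-24, the fly form of the core subunit known in mammals as NDUFV2, ranked 1372 (signal 168.3). ND-51, the flavin-carrying NADH-binding subunit, ranked 2644 (signal 118.5). The other 5 core genes had candidates below the threshold: ND-23 at rank 4821, ND-49 at 7614, ND-20 at 10561, ND-30 at 16467 and ND-75 at 21159.

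Of the 27 single-copy or parent genes left in complex I, which encode accessory subunits, 6 were bound (22.2%), near the 21.3% of all genes. They included the strongest of all respiratory chain genes, ND-ASHI (rank 451, signal 288.0; X 6679273 to 6679485), an accessory subunit of the membrane arm. ND-ASHI had signals of 169.8 in replicate 2 and 116.4 in replicate 4, at ranks 450 and 522 of those lists. ND-MWFE, a small accessory subunit, came next with rank 722 (signal 232.8), and it ranked 810 in replicate 2 and 602 in replicate 4. Both genes thus stood among the strongest 1000 regions in each replicate.

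The other 4 accessory genes were weaker but had summits close to their starts. ND-B17.2 ranked 1028 (signal 194.5; 2L 2579946 to 2580401), 1433 in replicate 2 and 812 in replicate 4, and its summit lay 2 bp before its start. ND-42 ranked 1582 (signal 157.9), 1985 in replicate 2 and 1260 in replicate 4. ND-SGDH ranked 1659 (signal 154.0), and its ranks of 2780 in replicate 2 and 1018 in replicate 4 were farther apart. These 3 genes were higher in the list of replicate 4. ND-MNLL ranked 2056 (signal 136.7), and it shares its start with the annotated gene CG45089, so the peak cannot be given to either. At the other end of complex I, ND-18 (rank 29390, signal 23.7) and ND-B16.6 (rank 28296, signal 24.4) had the weakest candidates of all 67 genes, and ND-19, ND-AGGG, ND-B14.7 and ND-B17 had none.

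Complex II had 1 bound gene of 8 (12.5%, interval 0.316 to 52.7%), against 21.3% of all genes. It was SdhA, which encodes the flavoprotein that oxidises succinate. The SdhA peak ranked 1081 (signal 190.5), 1298 in replicate 2 and 1118 in replicate 4. Its summit lay 859 bp before the SdhA start and only 58 bp from the start of cer, so by position it lay at cer. SdhB, the iron-sulfur subunit, had only a weak candidate at rank 22914. The membrane anchors SdhC and SdhD had candidates at ranks 4996 and 6760. Sdhaf3, an assembly factor that the naming rule admits although it is not a subunit, had no pooled candidate.

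Complex III had no bound gene of 9, against 21.3% of all genes, and the interval allows a share of up to 33.6%. It did have candidates at 6 genes: UQCR-14 at rank 6268 (signal 67.6), UQCR-C2 at 6570, UQCR-6.4 at 9351, UQCR-Q at 11864, UQCR-6.4L at 12966 and UQCR-11L at 18555. UQCR-C1, which with UQCR-C2 forms the core proteins on the matrix side, UQCR-11 and UQCR-14L had none. UQCR-14 ranked 8998 in replicate 2 and 5698 in replicate 4, and UQCR-C2 ranked 5686 and 8879 there, so neither reached the strongest 3860 of a single replicate.

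Complex IV had 6 bound genes of 16, and 5 of the 8 single-copy or parent genes (62.5%, interval 24.5 to 91.5%). The lower end of the interval lies above the 21.3% of all genes, but the complex is 1 of 5 looked at and the difference was not tested. Of the 8, COX4 alone had no upstream gene on the opposite strand within 1 kb. Among all genes with such a neighbour 37.4% were bound, a share inside the interval. COX5A was the strongest, at rank 737 (signal 230.2; 3R 11819309 to 11819764), 953 in replicate 2 and 720 in replicate 4. COX7B ranked 1883 (signal 143.2), 2602 in replicate 2 and 1196 in replicate 4. The other 4 peaks all lay in the weakest of the 5 equal parts of the IDR list.

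These 4 were COX8 (rank 3089, signal 107.6), COX7AL2 (rank 3156, signal 106.5), COX5B (rank 3271, signal 104.3) and COX6B (rank 3379, signal 102.5). COX8 and COX7AL2 were among the strongest 3860 regions of replicate 2 but not of replicate 4, and COX5B and COX6B of replicate 4 but not of replicate 2. Without these 4 the complex has 2 bound genes. The single-copy or parent genes below the threshold were COX7A at rank 7095, COX7C at 10340 and COX4 at 12712.

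Complex V had 2 bound genes of 15 (13.3%, interval 1.66 to 40.5%), against 21.3% of all genes. They were ATPsynE (rank 1746, signal 149.2) and ATPsynCF6 (rank 2013, signal 138.0). These encode a subunit of the membrane part and coupling factor 6 of the peripheral stalk. Neither strongest summit lay at the gene's own start. That of ATPsynE was 788 bp past a start and 195 bp from the start of spn-B, and a second IDR summit (rank 2886, signal 112.2) lay 30 bp past a start of ATPsynE. That of ATPsynCF6 was 960 bp before its start in an intron of Sec13, and a second IDR summit (rank 3841, signal 93.8) lay 110 bp before it. Both genes therefore also had a weaker IDR summit at their own promoter.

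None of the 3 genes for the rotating or catalytic F1 head examined, ATPsynbeta, ATPsyngamma and ATPsyndelta, was bound, against 21.3% of all genes. ATPsyngamma, the central shaft, had the strongest candidate of all unbound respiratory chain genes, at rank 4640 (signal 83.2). ATPsyngamma ranked 7223 in replicate 2 and 4579 in replicate 4. ND-23 followed at rank 4821 (signal 81.2). The gap in signal between COX6B at 102.5, the weakest bound gene, and ATPsyngamma at 83.2 spans the IDR threshold. The catalytic subunit gene ATPsynbeta ranked 6683, and its strongest region ranked 7677 in replicate 2 and 3265 in replicate 4. The summit of that replicate 2 region lay 864 bp from the pooled one, and the replicate 2 region at the pooled summit ranked 22210.

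Of the 64 single-copy or parent genes 16 were bound (25.0%, interval 15.0 to 37.4%), and of the 24 L copies 1 was (4.17%, interval 0.105 to 21.1%), against 21.3% of all genes. The parents' share was near that of all genes. The presence of an upstream gene on the opposite strand within 1 kb (a head-to-head partner) differed between the kinds as well, at 40 of 64 single-copy or parent genes and 4 of 24 copies. Among genes with no such partner, 1 of 24 single-copy or parent genes (4.17%) and 1 of 20 copies were bound, against 12.3% of all such genes. With a partner, 15 of 40 single-copy or parent genes (37.5%) and 0 of 4 copies were bound, against 37.4% of all genes with one. The part of promoter arrangement in the difference between parents and copies was not tested. Candidates were likewise present at 57 of the 64 (89.1%) and at 10 of the 24 (41.7%), against 60.2% of all genes. In 21 of 24 pairs the copy had a lower-ranked candidate than its parent, or none. The 3 exceptions were COX7AL2, SdhBL (rank 14515, against 22914 for SdhB) and UQCR-11L (rank 18555, with no candidate at UQCR-11).

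The only bound copy was COX7AL2, whose parent COX7A was not bound (rank 7095). Its summit lay 580 bp before a start and inside an intron of the gene's longest transcript. In contrast, 6 parents were bound and none of their 8 copies was. These pairs were ND-24 and ND-24L (no candidate), ND-51 with ND-51L1 (rank 25570) and ND-51L2 (no candidate), SdhA and SdhAL (no candidate), ATPsynCF6 and ATPsynCF6L (no candidate), COX5B and COX5BL (rank 18988), and levy with COX6AL (rank 20049) and COX6AL2 (no candidate). In the remaining pairs neither gene was bound. The copies ATPsynGL, ATPsynbetaL, COX4L, COX6CL, ND-20L, ND-49L, ND-B14.5AL, SdhCL and UQCR-14L had no candidate, and ATPsynepsilonL (rank 17343), COX7CL (rank 15338), COX7AL (rank 24663) and UQCR-6.4L had weak ones.

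**Figure D2:**
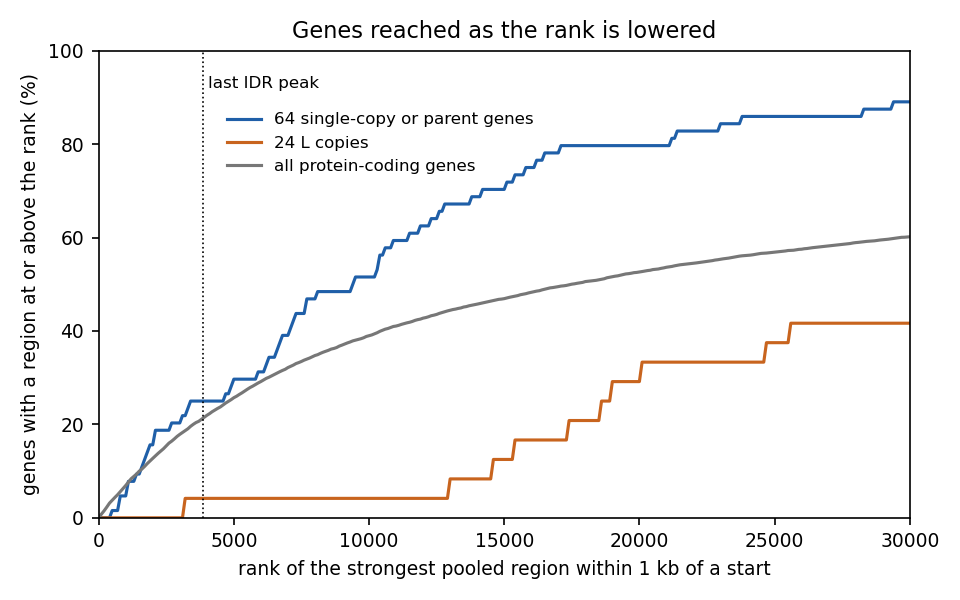
Share of genes (%, vertical axis) with a pooled region within 1 kb of a start at or above each rank (horizontal axis) for single-copy or parent genes, L copies and all protein-coding genes; the dotted line is the last IDR peak. The single-copy or parent genes end at 89.1%, the L copies at 41.7% and all genes at 60.2%.

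The summits of bound respiratory chain genes lay mostly before the start. Of the 17, 15 (88.2%) lay upstream and 13 (76.5%) within 250 bp, against 82.5% and 66.7% of all bound genes. Within 500 bp the order was the other way, with the same 13 (76.5%), against 84.8% of all bound genes. The median distance was 111 bp, against 167 bp. Of the 17 summits, 11 lay between genes and 6 in introns, and at 11 (64.7%) the member's own start was the nearest, against 69.3% of all bound genes. The farthest were ATPsynCF6, SdhA, ATPsynE and COX7AL2, at 580 to 960 bp.

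Most bound genes faced another gene across a short promoter. A head-to-head partner was present at 44 of 88 respiratory chain genes (50%), against 36.2% of all genes. With a partner, 15 of 44 were bound (34.1%, interval 20.5 to 49.9%), against 37.4% of all genes with one. Without a partner, 2 of 44 were bound (4.55%, interval 0.555 to 15.5%), against 12.3% of all such genes. These 2 were SdhA and COX7AL2. In both arrangements the interval of the respiratory chain genes holds the share of all genes, and this comparison was chosen after the positions had been seen.

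**Figure D3:**
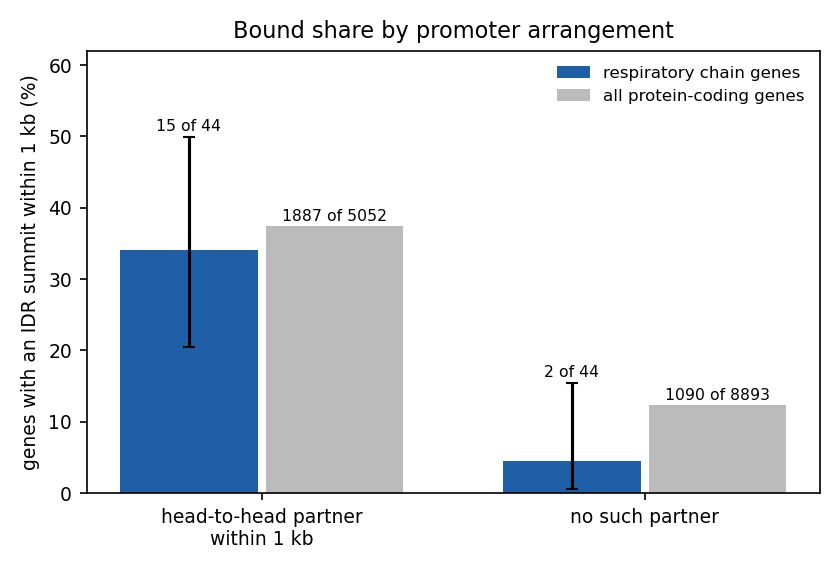
Share of genes (%) with an IDR summit within 1 kb of a start, for respiratory chain genes (blue, left, with Clopper-Pearson 95% intervals) and all protein-coding genes (grey, right), split by whether an opposite-strand start lies within 1 kb upstream. The blue bars stand at 34.1% and 4.55%, the grey bars at 37.4% and 12.3%.

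Of the 17 bound respiratory chain genes 15 (88.2%) had a partner, against 63.4% of all bound genes. At 13 of the 15 (86.7%) the summit fell between both starts, against 78.0%. All 15 partners were bound too, and a summit between both starts lies within 1 kb of each, so such a peak cannot be assigned to 1 gene of the pair. The median gap between the starts was 233 bp, against 318 bp.

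The partners had varied roles. ND-ASHI faced Fum1, the citric acid cycle enzyme fumarase, over 522 bp, and its summit lay 222 bp before the ND-ASHI start inside an intron of Fum1. ND-42 faced Cchl, named for cytochrome c heme lyase, over 229 bp. In both of these pairs the partner also acts in mitochondria. COX5A faced glo, an RNA-binding protein gene, over 179 bp, ND-B17.2 faced Arpc5 of the actin-nucleating Arp2/3 complex over 120 bp, and COX8 faced the proton pump gene VhaM9.7-b over 415 bp. ND-MWFE faced the peptidase gene TppII over 221 bp, with the summit 77 bp from TppII and 144 bp from ND-MWFE. ND-SGDH faced RhoGAP68F over 284 bp, ND-MNLL faced p115 over 233 bp, COX7B faced the exocyst gene Sec3 over 260 bp and COX5B faced the ciliary transport gene IFT52 over 298 bp. ND-24 faced corolla, ND-51 faced CG13994, COX6B, which shares its start with CG18809, faced CG33932, ATPsynE faced Afti and ATPsynCF6 faced the coat protein gene Sec13.

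**Figure D4:**
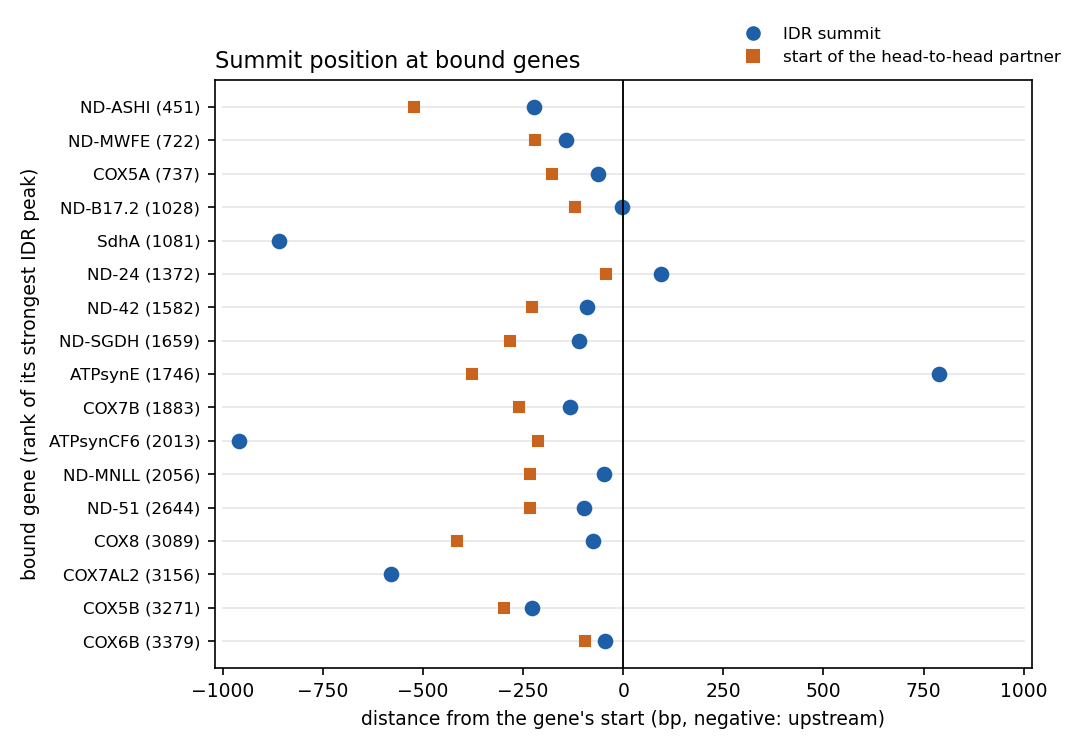
Position of the strongest IDR summit (circles) and of the partner's start (squares) relative to the gene's own start nearest that summit (bp, negative upstream) for each bound gene, strongest at the top, with its rank in brackets. In 15 of 17 rows the circle lies left of 0; at ND-24 and ATPsynE the partner faces another start of the gene.

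No AP-1 site (TGACTCA or TGAGTCA, both strands) lay within 50 bp of the summit of any of the 17 bound respiratory chain genes, against 4.4% of the 2044 peaks at all bound genes. With 17 genes a share of this size would place a site at fewer than 1 of them, so the difference was not detectable. Nor did any hold the letters with any centre base, TGANTCA, against 7.29%. Within 100 bp SdhA alone held an AP-1 site, 94 bp from its summit (5.88%, against 6.8% of peaks at all bound genes). With any centre base the letters were there at 2 of 17 (11.8%), against 11.4%. These were SdhA and ND-B17.2, which held TGATTCA at 90 bp. No match says only that these letters are not in the window.

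The NRG core (TTACATAA, TTATGTAA, TTACGTAA or TTATATAA, both strands) lay within 50 bp of the summit of 2 of 17 bound genes (11.8%), against 2.15% of peaks at all bound genes. Those were ND-SGDH, with TTATATAA 28 bp from the summit, and ND-MNLL, with TTACATAA 33 bp from it, and both matches were centred at -82 bp from the start. In ND-42, TTATATAA lay 50 bp from the summit and at -140 bp from the start, and counted in the wider window only, where 3 of 17 (17.6%) held the core, against 4.55%. The form TTATATAA also contains TATATA, the letters of a TATA-like run, and a match is a description and not a binding site. The full NRG element was at no bound summit within 50 or 100 bp, against 0.245% and 0.587% of peaks at all bound genes. These core counts rest on 2 and 3 genes and were not tested. At the 50 unbound genes with a candidate, the core was at 0 summits within 50 bp and at 3 (6%) within 100 bp. Peaks at all unbound genes with a candidate held the core in 1.45% and 3.29%. The full element lay within 100 bp at 2 of the 50 (4%), ATPsynD and COX7AL, against 0.63% of those peaks. From 250 bp before to 50 bp after the start, 6 of 88 genes (6.82%) held the core, against 5.18% of all genes.

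Of the other motifs searched on both strands, the CRE (TGACGTCA), the DRE (TATCGATA), the E-box (CACGTG), the GAGA motif (GAGAGAG), the ETS motif (CCGGAAG) and Ohler motif 1 were at none of the 17 summits within 50 bp. All peaks at bound genes held the DRE in 2.98% and the others in 0.489 to 1.81%. In the window from 250 bp before to 50 bp after the start, Ohler motif 1, a core promoter element of broadly expressed fly genes, was present at 13 of 88 respiratory chain genes (14.8%), against 4.5% of all genes. Among the bound it was at 4 of 17 (23.5%), against 7.12% of all bound genes, and these were COX5A, COX5B, COX7B and ND-MWFE. The difference rests on 4 genes and was not tested. An AP-1 site was in that window at 6 of 88 (6.82%), against 2.49% of all genes (347). None of these 6 was bound, whereas of the 347 genes with a site 120 were, and 6 genes are too few to compare. Counted the other way, 0 of the 17 bound respiratory chain genes held one, against 120 of all 2977 bound genes (4.03%). The 6 were ND-51L2, ND-B14.5A, ND-B14.5AL, ND-B16.6, ND-MLRQ and UQCR-14L. Among them, ND-51L2, ND-B14.5AL and UQCR-14L are L copies with no candidate.

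ND-MLRQ had an AP-1 site, TGAGTCA, 15 bp from its candidate summit and at -71 bp from its start. The candidate ranked 12285 (signal 43.2) in the pooled list and 14580 in replicate 4, and replicate 2 had none there.

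The replicates ranked these genes alike in broad order. All 17 bound genes had a candidate in both replicates, with ranks of 450 to 6650 in replicate 2 and 522 to 4554 in replicate 4. Over the 17, Spearman's rho of the ranks was 0.66, against 0.76 over 2973 bound genes, and over the 52 respiratory chain genes with a region in both it was 0.82, against 0.83 for all such genes. These correlations run across genes of the same 2 libraries and describe those libraries. The 17 and the 2973 were alike kept for their strength in the pooled list, which narrows the range of ranks behind both 0.66 and 0.76.

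Taking the strongest 3860 candidates of each replicate, 14 of 88 genes (15.9%) had one in replicate 2, against 20.9% of all genes, and 17 of 88 (19.3%) had one in replicate 4, against 22% of all genes. They shared 12 genes, which is 85.7% of those of replicate 2 and 70.6% of those of replicate 4, against 84.8% and 80.7% for all genes. All 12 were also bound in the IDR list. Of the other 5 bound genes, COX7AL2 and COX8 passed in replicate 2 alone and COX5B, COX6B and ND-51 in replicate 4 alone. ATPsynbeta and ND-B22 passed in replicate 4 but were not in the IDR list.

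Bound genes stood higher in replicate 4 at 13 of 17 (76.5%), against 55.0% of all bound genes. The largest ratio of ranks was at COX6B, 6650 in replicate 2 and 1922 in replicate 4, which differ 3.46-fold. ND-SGDH differed 2.73-fold, ND-51 2.56-fold (4339 in replicate 2 and 1692 in replicate 4) and COX7B 2.18-fold, all higher in replicate 4. ATPsynCF6 differed 2.14-fold the other way, 1713 in replicate 2 and 3658 in replicate 4. Its strongest summit in replicate 4 lay 849 bp from the pooled one, and the replicate 4 region at the pooled summit ranked 2512.

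**Figure D5:**
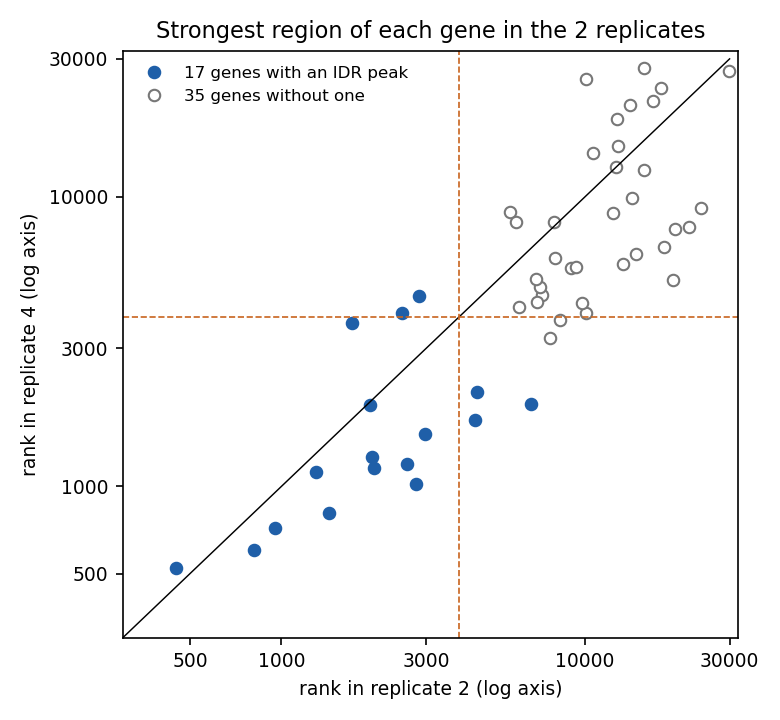
Rank of the strongest region within 1 kb of a start in replicate 2 (horizontal, log axis) and replicate 4 (vertical, log axis) for 52 respiratory chain genes with a region in both; filled points are the 17 bound genes, the solid line marks equal ranks and the dashed lines rank 3860. Of the 17 filled points, 13 lie below the solid line, on the side of a higher place in replicate 4.

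Subunits and carriers that the naming rule misses were counted from a list of their own. Of 10 other chain genes 4 were bound (40.0%, interval 12.2 to 73.8%), against 21.3% of all genes. The cytochrome c genes Cyt-c-p (rank 282, signal 355.4) and Cyt-c-d (rank 437, signal 291.4) stood above every one of the 88, with summits 999 bp and 395 bp past a start. The ATP synthase alpha subunit gene blw ranked 994 (signal 198.1) and levy, a complex IV subunit gene, 2175 (signal 133.0). cype, another complex IV subunit gene, followed below the threshold at rank 4744. At Cyt-c-d the start of CG31808 was nearer to the summit than its own, and at levy that of wmd was. The head of the ATP synthase thus had a peak at blw and none at ATPsynbeta, ATPsyngamma or ATPsyndelta.

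Among neighbouring pathways, 6 of 13 genes of the citric acid cycle or of pyruvate dehydrogenase (Pdha and Pdhb) were bound. So were 1 of 5 carrier genes and 2 of 6 assembly factor genes, against 21.3% of all genes. The 6 were Idh3g at rank 307, Pdhb at 1595, mAcon1 at 1636, ScsbetaA at 1889, Idh3b at 3086 and Fum1, which shares its peak with ND-ASHI. The carrier was Mpcp2 at rank 2815, and the assembly factor genes were CIA30, for complex I, at rank 79 and Cox17, for complex IV, at 1454. At CIA30 the start of CG7601 was nearer to the summit than its own, and at mAcon1 those of CG43345 and CG43346 were. The bound shares of 3 other housekeeping families were higher than the 19.3% of all 88 respiratory chain genes and the 25.0% of the single-copy or parent ones. They were 38 of 92 cytoplasmic ribosomal protein genes (41.3%), 24 of 73 mitochondrial ribosomal protein genes (32.9%) and 12 of 33 vacuolar proton pump genes (36.4%). These differences were not tested.

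Of 7 genes for regulators of mitochondrial gene expression, 1 was bound (14.3%, interval 0.361 to 57.9%), against 21.3% of all genes. It was mtTFB1, a mitochondrial rRNA methyltransferase related to transcription factor B, at rank 1500 (signal 162.0). Its summit lay 305 bp before the mtTFB1 start and nearer to the start of CG11658. Ets97D, the fly form of a subunit of GA-binding protein, had a candidate at rank 4809, and PolrMT, the mitochondrial RNA polymerase, at 4940. The coactivator gene srl ranked 6910, the mitochondrial transcription factor gene mtTFB2 9038, ewg, the fly form of nuclear respiratory factor, 10757, and TFAM, which packs mitochondrial DNA, 26290.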

How the data were processed

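Peak lists for dm6 in narrowPeak layout were used as the authors deposited them, from 2 replicates, from both pooled and after IDR. Per the labels and the sample descriptions, candidates came from alignments of 1 or both replicates and 1 control file. Neither an aligner nor a peak caller is given in the sources used here. The deposited signal is the caller's own value and was used for ranks and description within a list. The −log10 q value that the authors deposited was at a single value in the IDR list and was not used. Lists for dm3 were not used. Summits are the 0-based start plus the deposited offset, and printed coordinates are 1-based.

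Starts were the 19607 annotated ones of 13945 protein-coding genes in Ensembl release 115, and the sequence was the Release 6 genome, whose arm names and lengths suit the lists. A gene took the strongest summit within 1 kb of any start. Symbols ending in L whose stem is another subunit were taken as copies. The motif search covered both strands, 50 bp to each side of a summit. In the comparison lists 41 of 43 symbols were counted: Cox15 was not matched, and Oscp is the gene listed as ATPsynO. No test was run: with 1 group of 2 libraries the values are counts, shares, medians and ranks. Alternatives were other windows, gene assignments, list depths and single replicates. The motif TGANTCA was added after the data were seen. The members' naming rule uses no binding value, but the family, the lists and the comparisons were chosen with earlier results of these data known. Genes were named by rule: the 12 strongest bound, the 3 strongest per complex, the 2 strongest and 2 weakest unbound, copies with parents, the 5 with the largest rank ratio, the 5 strongest other chain genes and the regulators. Further genes were named after their values were seen. Gene assignment was tested on simulated data. The work was done with pandas 2.3.3, matplotlib 3.10.9, scipy 1.17.1 and numpy 2.4.6 under Python 3.11.15.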

Additional observations from a re-analysis of the deposited data

How the results depend on the processing

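Across the alternatives the number of bound respiratory chain genes ran from 10 to 23, and the share did not follow that of all genes in every one. It was 10 of 88 (11.4%) in the strongest 1930 IDR peaks, against 12.4% of all genes, and 23 (26.1%) within 2 kb, against 26% of all genes. With the summit given to the nearest start only it was 12 (13.6%), against 15.5%, and ATPsynCF6, COX5B, COX7B, ND-MWFE and SdhA were lost. From replicate 2 alone it was 14 (15.9%), against 20.9% of all genes, and from replicate 4 alone 17 (19.3%), against 22%. Within 250 bp it was 15 (17%), above the 15.3% of all genes. Within 500 bp or 250 bp of a start, complex II and the L copies each had 0 bound genes, and within 250 bp the other chain genes had 2. Within 2 kb complex II had 2, complex III had 1 and the L copies had 3. With the nearest start only, complex II had 0, complex V had 1 and the other chain genes had 2. In the strongest 1930, complex IV had 2, complex V had 1, the single-copy or parent genes had 10 and the L copies had 0. With any overlap of the interval complex III had 1, and with the most upstream start only the L copies had 0. From single replicates the L copies had 0 to 1. Within 100 bp of bound summits AP-1 sites were at 1 gene (5.88%, against 6.8% of peaks at all bound genes). TGANTCA was there at 2 (11.8%, against 11.4%). In the promoter window TGANTCA, the DRE and GAGAGAG were each at 1 (5.88%), against 8.5%, 15.2% and 6.82% of all bound genes. Ohler motif 1 was there at 4 (23.5%), against 7.12%. The cause of these changes was not tested beyond the construction of each alternative. No paired analysis was possible because the 2 libraries form a single group.

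With 17 bound genes the intervals are wide, and the counts of complexes II, III and V rest on 0 to 2 genes. Shared promoters leave the bound gene of a pair unassigned, whole embryos hide the cell type, and no library depth is known.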
